A study of Mus musculus with 12 samples.

Results

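The transcripts of mouse embryonic stem cells (ESC) that carry 1 working copy of Chd8 were set against those of wild-type ESC, to ask what loss of 1 copy changes in pluripotent cells. The comparison uses 4 of the 12 RNA libraries of the study, chosen by their labels. These are 2 libraries of ESC with the genotype CHD8_HET (HET, heterozygous) and 2 libraries of WT ESC, all from cells cultured in 2i. The other 8 libraries are 2 of CHD8_KO ESC (KO, both copies altered), and 2 each of HET, KO and WT neural progenitor cells (NPC) obtained by differentiation. HET and WT NPC give a separate set of libraries of the same genotypes, which may come from the same lines as the ESC. KO ESC values are shown beside the HET values where useful, but they rest on the same WT libraries. The sources used here do not say how the Chd8 alleles were made, how many lines carry each genotype, or whether replicates are separate cultures. The p-values below thus measure spread between replicates that could be technical.

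CHD8 is an ATP-dependent chromatin remodeller of the chromodomain helicase family. It binds at promoters of active genes, and it is known as a negative regulator of beta-catenin target genes. Heterozygous disrupting mutations of the human gene are a recurrent genetic finding in autism spectrum disorder, so the state with 1 working copy is the one of clinical interest. The 2i medium holds inhibitors of the kinases MEK and GSK3 and keeps mouse ESC in a naive pluripotent state.

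Each library gives an estimated count for 55419 transcripts. Totals were 12884157 and 13432274 in HET ESC and 9062447 and 9840544 in WT ESC, so the HET libraries were the deeper pair. A single transcript, uc009vew.1, held 20.3% and 25.8% of the counts in HET ESC and 18.5% and 21.2% in WT ESC. It did not pass the test between the genotypes (log2 fold change 0.31, SE 0.275, adjusted p = 0.829, edgeR). The transcripts carry UCSC-style identifiers without gene names, and 0 of them matched the name tables at hand. The level of Chd8 itself and the ESC marker genes were therefore not examined, and neither the genotype labels nor the cell type labels were checked against them. Reads that fit several isoforms are divided among them by estimation, so rows of 1 gene can exchange counts. In bulk RNA, fewer cells of a kind and less RNA per cell cannot be told apart. Values per transcript are given below as CPM, counts scaled to the size of the library, with TMM factors that correct for its composition.

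Few single transcripts passed the test between HET and WT ESC. Of 30021 transcripts tested in 1 edgeR quasi-likelihood model over all 12 libraries, 10 passed an adjusted p of 0.05, which is 0.0333% of those tested. Of these, 6 were higher in HET ESC and 4 lower. At an unadjusted p of 0.05, 2603 transcripts passed (8.67%). The biological coefficient of variation was 0.592, so the spread between libraries of a group was wide at this level, and the count of calls does not say how many transcripts differ. A fit without HET ESC replicate 1 or 2 gave 3 or 5 calls, of which 1 or 2 were among the 10, leaving out WT ESC replicate 1 or 2 gave 30 or 49, and a fit of the 6 ESC libraries alone gave 0. DESeq2 called 1058. In NPC the same genotypes gave 3 calls (0.00999% of the 30021).

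Among called transcripts with a mean of at least 5 CPM and no overlap between groups, the largest rise was that of uc009tkb.1. The transcript is 1545 bases long. It had 24.4 and 22 CPM in HET ESC, 25.2 and 35.4 CPM in KO ESC, and 0.474 and 0.62 CPM in WT ESC. Both HET libraries were far above both WT libraries (log2 fold change 5.37, SE 0.301, adjusted p = 0.00263, edgeR). In NPC the level was high in every library, at 86.6 and 121 CPM in HET and 82.7 and 83.8 CPM in WT, with a log2 fold change of 0.32 (adjusted p = 0.789, edgeR). The difference between the ESC effect and the NPC effect passed the test for this transcript alone among the 30021 (0.00333%), at 5.05 log2 units (SE 0.369, adjusted p = 0.0207, edgeR). That call was lost when HET ESC replicate 1, HET NPC replicate 1 or any of the WT libraries of either cell type was left out, and was kept without HET ESC replicate 2 or HET NPC replicate 2. The counts of a neighbouring row of nearly the same length, 1541 bases, ran the opposite way. That neighbour had 0 and 0 CPM in HET ESC, against 11.1 and 13.4 CPM in WT ESC. Summed over both rows, HET ESC had 24.4 and 22 CPM and WT ESC 11.6 and 14.1 CPM. The groups still did not overlap, but the summed log2 fold change was 0.85 and did not pass the test (adjusted p = 0.202, edgeR). The summed difference between ESC and NPC effects was 0.53 (adjusted p = 0.927, edgeR).

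The second rise, uc007pap.2, is a transcript of 1503 bases. It had 19.2 and 20.3 CPM in HET ESC, 26.6 and 27.7 CPM in KO ESC, and 1.3 and 2.48 CPM in WT ESC. It averaged 19.7 ± 0.793 CPM in HET ESC and 1.89 ± 0.832 CPM in WT ESC (SD, n = 2 each), a ratio of 10.4. The log2 fold change was 3.36 (SE 0.311, adjusted p = 0.0226, edgeR). Without HET ESC replicate 1 or 2 the adjusted p was 0.0723 or 0.0612 (edgeR), at log2 fold changes of 3.41 and 3.32. In NPC it stood at 29.5 and 25.9 CPM in HET and 4.27 and 5.68 CPM in WT, which is 2.47 log2 units (adjusted p = 0.0848, edgeR). HET and WT libraries were apart in both cell types. No row of near-equal length lies within 4 rows of it. The 50 nearest tested rows had median log2 fold changes of 0.88 in ESC and 0.84 in NPC, so this transcript sits among rows that were higher in HET on the whole.

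The largest fall among transcripts that met the rule was uc007urk.2, of 1731 bases. It had 112 and 99.4 CPM in HET ESC, 98.5 and 100 CPM in KO ESC, and 292 and 353 CPM in WT ESC. HET ESC held 0.328 of the WT level (log2 fold change -1.61, SE 0.125, adjusted p = 0.0104, edgeR). Without HET ESC replicate 1 or 2 the adjusted p was 0.0662 or 0.0612 (edgeR). In NPC it had 119 and 121 CPM in HET and 191 and 208 CPM in WT, which is -0.74 log2 units (adjusted p = 0.161, edgeR). All HET libraries lay below all WT libraries in both cell types. Its 50 nearest tested rows had a median of -0.54 in ESC and -0.37 in NPC.

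The other fall, uc008lju.2, is a transcript of 7497 bases. It had 10.7 and 11 CPM in HET ESC, 26.2 and 27.0 CPM in KO ESC, and 30.0 and 30.5 CPM in WT ESC. The KO libraries were near the WT level, and only the HET libraries were low (HET against WT log2 fold change -1.48, SE 0.157, adjusted p = 0.038, edgeR). Leaving out any 1 of the 4 libraries ended this call, with adjusted p of 0.0564 to 0.146 (edgeR). In NPC uc008lju.2 had 62.4 and 47.9 CPM in HET and 93.1 and 79.1 CPM in WT. That is -0.64 log2 units (adjusted p = 0.294, edgeR). A neighbouring row of 7494 bases had 11 and 11.6 CPM in HET ESC, 0 and 6.96 CPM in KO ESC, and 0.356 and 0 CPM in WT ESC. Summed over both rows, HET ESC had 21.6 and 22.5 CPM and WT ESC 30.4 and 30.5 CPM, a ratio of 0.726. The summed log2 fold change was -0.47 (adjusted p = 0.305, edgeR). In NPC the sums were 79.2 and 80.9 CPM in HET and 93.3 and 100 CPM in WT.

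**Figure D1:**
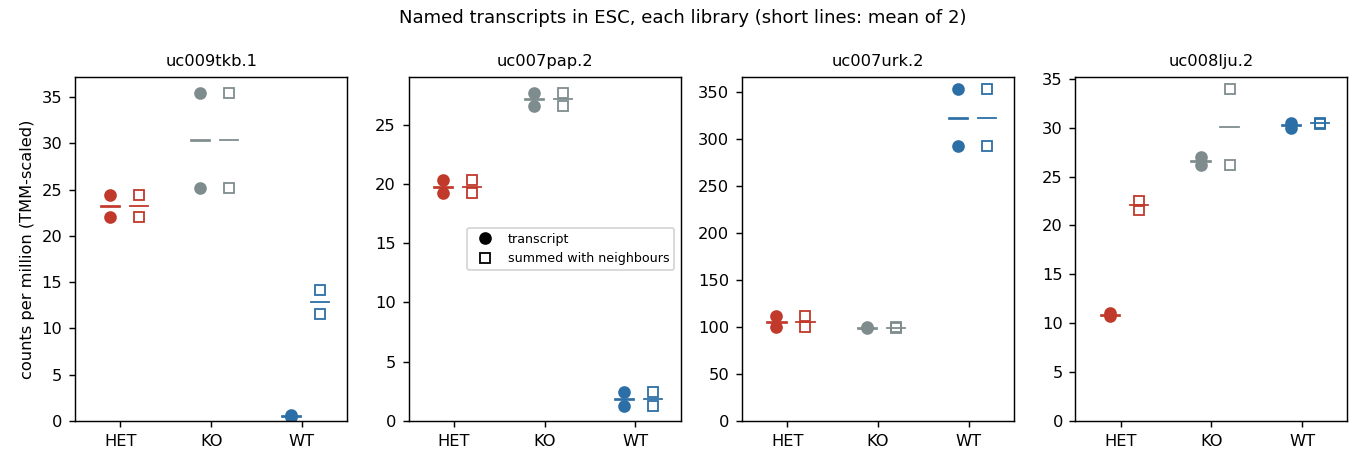
Level of the 4 named transcripts in each ESC library, in TMM-scaled CPM on linear axes that start at 0, for HET, KO and WT (2 libraries each, short lines are means). Filled circles are the transcript alone and open squares the transcript summed with rows of near-equal length within 4 rows. The squares leave the circles for uc009tkb.1 in WT and for uc008lju.2 in HET, where summing brings HET and WT closer. For uc008lju.2 the square of KO replicate 2 also leaves its circle, at 34.0 against 27.0 CPM. For uc007pap.2 and uc007urk.2 the squares lie at the level of the circles.

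The other 6 called transcripts are described without their identifiers. The 2 further rises in the same run of rows as uc007pap.2 were a transcript of 11416 bases, with 22.5 and 27.0 CPM in HET ESC against 4.39 and 5.17 CPM in WT ESC, and a transcript of 2644 bases, with 68.0 and 56.8 CPM in HET ESC against 6.05 and 8.27 CPM in WT ESC. Both were also called higher in HET NPC, at 2.87 and 2.81 log2 units (adjusted p = 0.0223 for each, edgeR). The other 4 were listed at 0 counts in both libraries of the lower group, which allows up to 3 counts per library by counting error alone. Of these, 2 were higher in HET ESC and 2 lower. One of the rises had 10.9 and 7.46 CPM in HET ESC and 0 in WT ESC, but with its 3 neighbours of near-equal length it gave 12.9 and 9.64 CPM in HET ESC and 10.2 and 9.2 CPM in WT ESC. One of the falls had 0 CPM in HET ESC and 11.3 and 5.17 CPM in WT ESC, but with its 2 such neighbours it gave 9.88 and 8.21 CPM in HET ESC and 11.3 and 5.79 CPM in WT ESC. In both cases the summed levels of the genotypes overlapped. The remaining 2 have no neighbour of near-equal length. One had 3.09 and 5.03 CPM in HET ESC and 0 in WT ESC, and the other had 0 in HET ESC and 1.78 and 1.45 CPM in WT ESC. Both were detected in all NPC libraries of the same genotypes, at 3.85 to 14.8 CPM.

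Adding near-equal neighbours ended 4 of the 10 calls, as for the 4 transcripts above whose counts were offset by a neighbour. In all, 20.7% of transcripts lie within 4 rows of another that differs by at most 1% in length. When such rows were summed, 27373 features were tested and 4 were called, 3 higher in HET ESC and 1 lower. The 4 were the features that hold uc007pap.2, uc007urk.2 and the 2 further rises described above. The 2 low transcripts without such a neighbour had an adjusted p of 0.0569 in that fit (edgeR). The summing was chosen after the single-transcript values had been seen. Of the 6 rises called without summing, 6 had the same sign in NPC and 2 were called there, with NPC log2 fold changes of 0.02 to 2.87. Of the 4 falls, 4 had the same sign in NPC and 0 were called, with NPC values of -0.74 to -0.18. Over 19918 transcripts with a mean of at least 2 CPM, 48.3% were above 0 in NPC. Of the 30021 tested, 0.00999% were called there.

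A list by size alone holds more transcripts. Among 10039 transcripts with a mean of at least 10 CPM in the 4 libraries, 52 were past 2-fold higher in all 4 pairings of a HET with a WT library (0.518%), and 36 were past 2-fold lower in all 4 (0.359%). In NPC the same rule gave 49 higher (0.469%) and 74 lower (0.709%) of 10440. The ESC lists were described by their values in NPC. The NPC libraries shared the filter and the scaling, but their HET and WT difference was not used by the rule for the ESC lists. The 52 had a median NPC log2 fold change of 0.86, and 41 of them (78.8%) were above 0 in NPC. The 36 had a median of -0.48, and 24 (66.7%) were below 0. Over all 10039 transcripts the NPC median was -0.01, with 49.1% above 0. Most transcripts of the ESC lists did not meet the rule in NPC. The lists shared 6 higher transcripts, which are 11.5% of the ESC list and 12.2% of the NPC list. They shared 1 lower transcript, which is 2.78% and 1.35%. Of all 10440 transcripts compared in NPC, 0.469% met the rule as higher and 0.709% as lower. Of the 6, 5 lay in the runs of rows described next.

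The deposited rows are not in the order of their identifiers. The identifiers belong to 5 series that interleave, and the sources used here do not say what the order follows. When 19918 transcripts with a mean of at least 2 CPM were taken in that order in 199 blocks of 100, the HET minus WT differences in ESC were not evenly spread. The median log2 fold change of a block, taken relative to the median block, passed 0.25 in neighbouring blocks in 4 places. These 4 stretches held 19 blocks and 9.32% of the tested transcripts. In 3 of them HET ESC was higher than WT ESC and in 1 it was lower.

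The first stretch, rows 5893 to 6870, had a median of 0.378 in ESC, a HET to WT ratio of 1.3. The second, rows 7068 to 9690, is the longest with 11 blocks and had a median of 0.389, a ratio of 1.31. They are parted by 1 block below the limit. In the first, 78.5% of transcripts were above 0 in ESC, and in the second 75.6%, against 50.8% over all blocks. These are modest differences carried by most transcripts of the stretch, and 0 transcripts within either were called singly.

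The third stretch, rows 10798 to 11578, had the largest difference, a median of 0.678 or a ratio of 1.6, and 3 of the 10 called transcripts. The fourth, rows 15377 to 15854, was the only one with lower HET levels, a median of -0.486 or a ratio of 0.714. In it 15% of transcripts were above 0, and 1 transcript, uc007urk.2, was called.

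The 4 pairings of a HET with a WT library use the libraries that chose the stretches, so their likeness is a description and largely follows from the choice. All 4 had the same sign in each of the 19 blocks. In the third stretch the pairings of HET replicate 1 gave medians of 0.573 with WT replicate 1 and 0.651 with WT replicate 2. Those of HET replicate 2 gave 0.573 and 0.628. The gap between the HET replicates there was 0.086 and that between the WT replicates -0.063. In the fourth stretch the 4 pairings lay between -0.502 and -0.467, with replicate gaps of 0.019 in HET and 0.06 in WT.

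**Figure D2:**
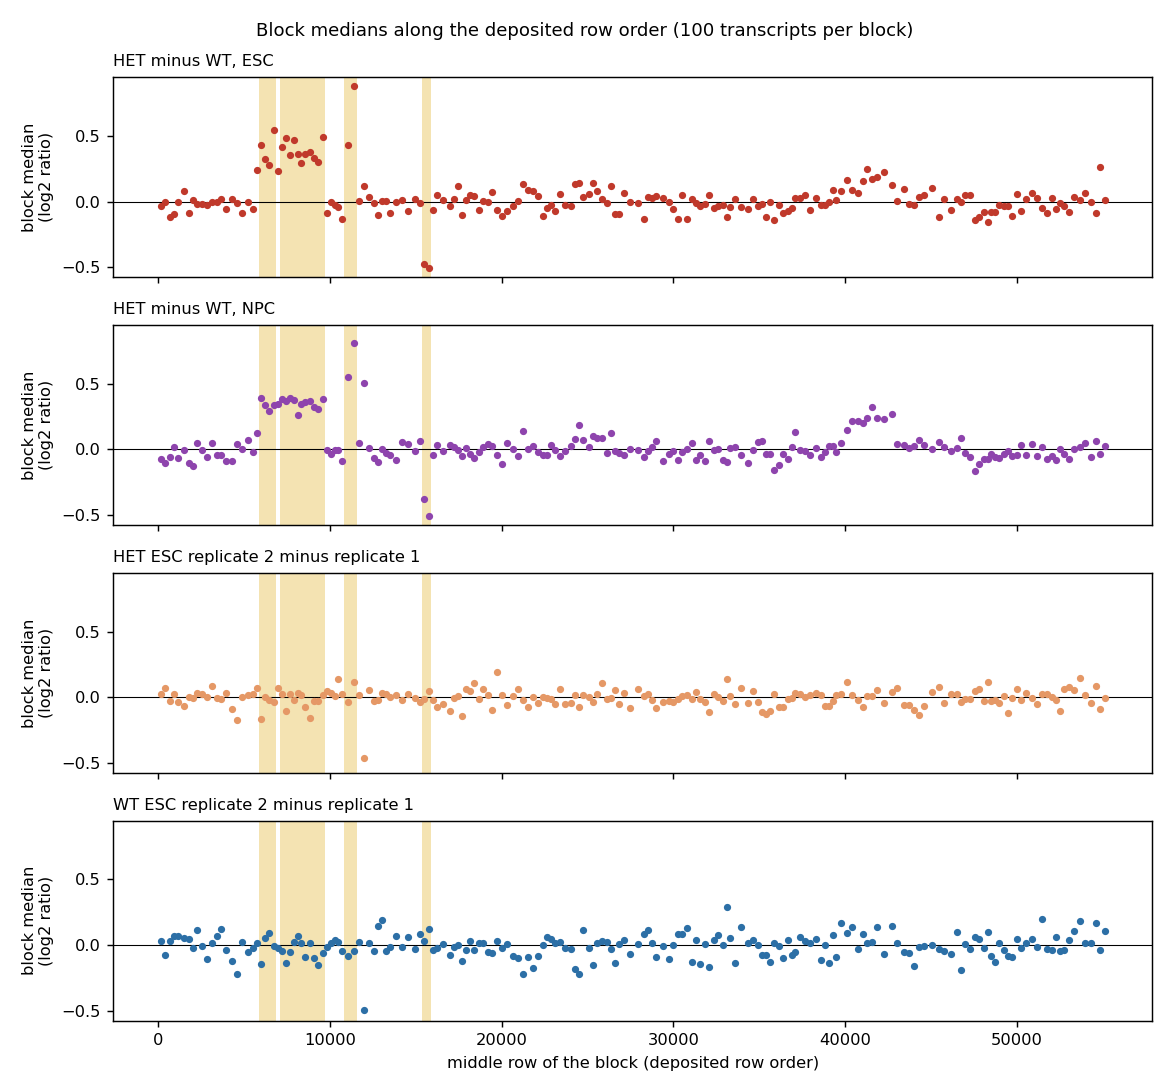
Median log2 ratio of each of 199 blocks of 100 transcripts against the middle row of the block in the deposited order, for HET minus WT in ESC, HET minus WT in NPC, the 2 HET ESC libraries and the 2 WT ESC libraries. Shaded bands are the 4 stretches of the ESC comparison. The blocks in the bands stand off 0 in ESC and in NPC, in ESC by 0.28 to 0.878 where HET is higher, and the replicate gaps in those bands run from -0.169 to 0.124.

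The same stretches appeared in NPC. The NPC libraries entered the filter and the scaling, and the scan settings were chosen with earlier results known. The HET minus WT difference in NPC was not used by the rule that cut the stretches. The NPC medians of the stretches were 0.334, 0.358, 0.697 and -0.463 for the first to the fourth, against 0.378, 0.389, 0.678 and -0.486 in ESC. All 19 blocks had the ESC sign in NPC and all 19 passed 0.25 there, among 23 blocks that passed it in NPC in all. Across the 199 blocks the ESC and NPC medians correlated at r = 0.884, a description over blocks that share the libraries of each cell type. Over the 180 blocks outside the stretches r was 0.643, and 120 of the 180 had the same sign in ESC and NPC. The 180 include the blocks at rows 5649 to 5890 and 6871 to 7059, which border the first stretch. Those blocks were at 0.243 and 0.234 in ESC and at 0.124 and 0.349 in NPC. The standard deviation of the block medians was 0.155 for HET minus WT in ESC and 0.15 in NPC, against 0.0675 between the HET ESC replicates and 0.0911 between the WT ESC replicates. Outside the stretches the single pairings of a HET with a WT library had 0.0795 to 0.12, against 0.0673 between the HET replicates and 0.0921 between the WT replicates, so the ranges met there.

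**Figure D3:**
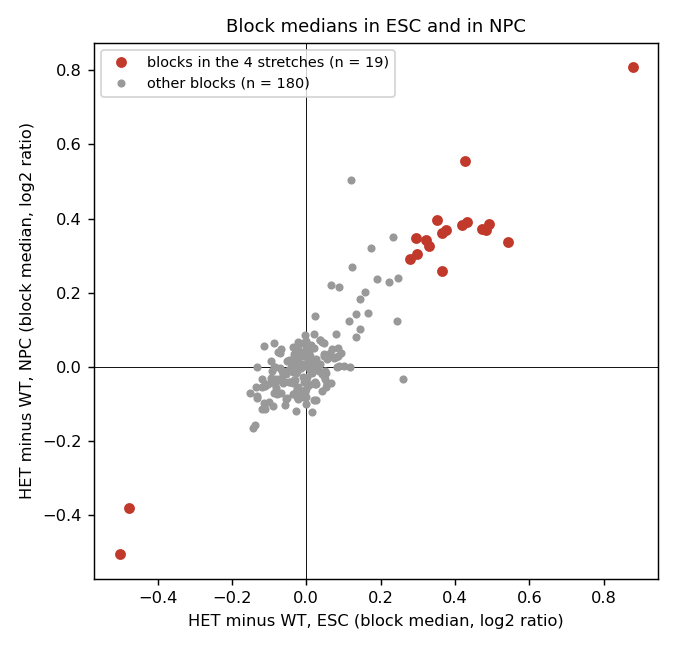
HET minus WT block medians in NPC against those in ESC, in log2 units, 1 point per block of 100 transcripts. The 19 blocks of the stretches (red) lie in the upper right and lower left, and the 180 other blocks (grey) cluster near 0 with r = 0.643.

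KO ESC, compared with the same WT libraries, had medians of 0.633, 0.327, 0.768 and -0.549 in the 4 stretches. In the first the KO value was larger than the HET value of 0.378, and in the second it was smaller than the HET value of 0.389. In the third the HET and KO values were 0.678 and 0.768, and in the fourth they were -0.486 and -0.549. The gap between HET and KO was widest in the first stretch. These sets share their WT libraries and were not tested against each other.

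Medians over 25 transcripts placed the edges of the stretches. The first run of higher values began at rows 5797 to 5836, where HET minus WT in ESC was 0.459, a little before the first stretch as cut by blocks of 100. It ended sharply, with 0.367 at rows 9634 to 9690 and -0.089 at rows 9691 to 9730. The NPC values at these edges were 0.206, 0.359 and -0.048. Between the first and second stretches the lowest ESC value was 0.126, at rows 7016 to 7059. The first and second stretches therefore form 1 nearly continuous run at this resolution.

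The third stretch was narrower than its blocks. It was at 0.099 at rows 10868 to 11070 and at 0.771 at rows 11079 to 11132. NPC was already at 0.395 and KO ESC at 0.324 in the first of these. The ESC difference peaked at 1.056 at rows 11263 to 11346. It was still 0.706 at rows 11504 to 11578, then 0.204 at rows 11582 to 11651. In NPC the peak was 0.983 in the same rows, and KO ESC stood at 1.65 there. The fourth stretch started between rows 15377 to 15445, at -0.124, and rows 15448 to 15497, at -0.723. It ended with -0.733 at rows 15815 to 15854, -0.247 at rows 15858 to 15937 and 0.07 at rows 15939 to 15986. Within it NPC came nearer to 0 than ESC at rows 15749 to 15812, at -0.161 in NPC and -0.45 in ESC. Both narrow stretches thus had edges of 1 or 2 such medians in ESC.

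**Figure D4:**
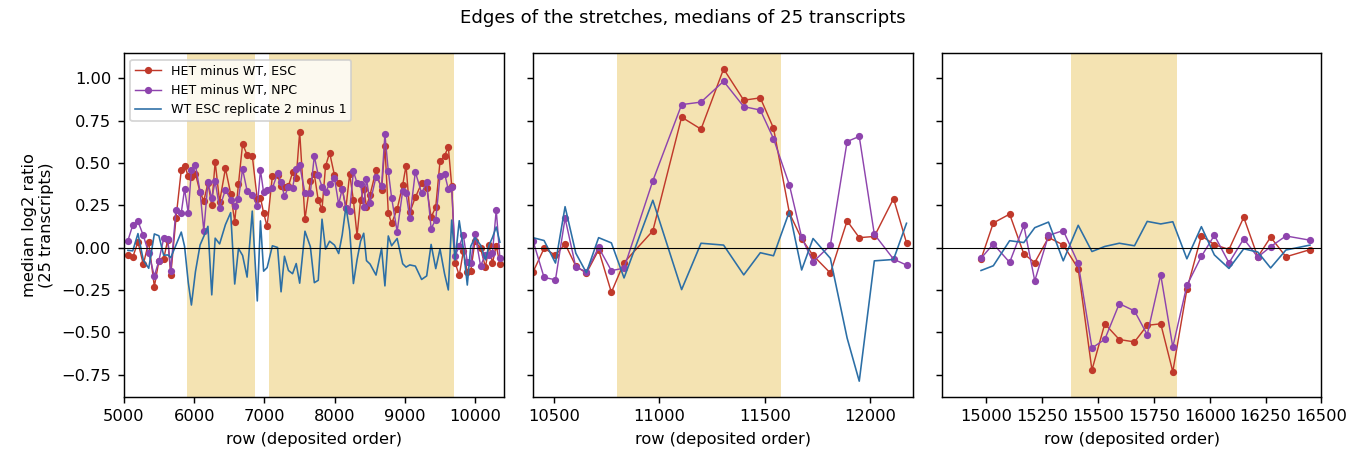
Median log2 ratio over 25 transcripts against the row in the deposited order, around the 4 stretches (shaded), for HET minus WT in ESC, HET minus WT in NPC and the 2 WT ESC libraries. The ESC and NPC lines leave 0 in the same stretches, with peaks of 1.056 in ESC and 0.983 in NPC in the third, where the NPC line climbs earlier. The WT replicate line varies from median to median, with 0.28 and -0.248 at the start of the third stretch, and shows no plateau over the stretches.

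Beyond the stretches, the longest run of neighbouring blocks that lay above 0 in both cell types had 12 blocks, rows 39602 to 43598. Its block medians were 0.007 to 0.247 in ESC and 0.037 to 0.32 in NPC, so no ESC block passed the limit. KO ESC had a median of -0.184 over these blocks, on the other side of 0 from the HET median of 0.14. A single block at rows 54733 to 54989 passed the limit in ESC, at 0.261, with -0.033 in NPC.

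Since some neighbouring rows had opposite differences and others ran the same way, the test was repeated on sums of 10 consecutive rows, a choice made after these patterns had been seen. Such sums do not follow genes. Of 5019 sums tested over the 12 libraries, 203 were called between HET and WT ESC (4.04%), 128 higher in HET ESC and 75 lower. In NPC 180 were called (3.59%). The count depended on the libraries. It was 50 and 65 when HET ESC replicate 1 or 2 was left out, and 188 and 72 when WT ESC replicate 1 or 2 was. With only the 6 ESC libraries 39 were called, and with only the 4 libraries compared, 5. Without scaling factors there were 96, with 47 higher and 49 lower.

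Within the stretches 88 of 454 sums were called higher (19.4%) and 22 lower (4.85%), against 2.55% and 1.49% of all 5019 sums. Because these rows were chosen for their ESC difference, the shares are a description. The largest were in the third stretch. The sum of rows 11331 to 11340 had 38.1 and 45.5 CPM in HET ESC, 89.6 and 110 CPM in KO ESC, and 3.8 and 3.1 CPM in WT ESC (log2 fold change 3.57, SE 0.283, adjusted p = 0.000157, edgeR). In NPC the same rows had 67.3 and 52.6 CPM in HET and 5.17 and 8.81 CPM in WT (3.11, adjusted p = 0.000105, edgeR). The next rows, 11341 to 11350, had 105 and 97.0 CPM in HET ESC and 12.2 and 13.9 CPM in WT ESC. Levels in WT were low but above 0 in both cell types. In the fourth stretch, rows 15811 to 15820 had 86.5 and 79.2 CPM in HET ESC, 87.8 and 67.8 CPM in KO ESC, and 251 and 225 CPM in WT ESC (log2 fold change -1.55, SE 0.14, adjusted p = 0.000297, edgeR). In NPC those rows had 48.9 and 56.1 CPM in HET and 81.1 and 66.7 CPM in WT (-0.48, adjusted p = 0.0845, edgeR).

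Outside the stretches 40 of 4565 sums were called higher (0.876%) and 53 lower (1.2%), against 2.55% and 1.49% of all 5019 sums. Their NPC values come from other libraries. Of the 40, 34 were above 0 in NPC (85.0%), with a median of 0.35, and of the 53, 43 were below 0 (81.1%), with a median of -0.23. Over all 4565 sums 47.1% were above 0 in NPC and 52.9% below, with a median of -0.02. The called sums in ESC and NPC shared 78 in the same direction, which are 38.4% of the ESC calls and 43.3% of the NPC calls, and 60 of the 78 lay in the stretches. None was called in opposite directions, a count of 0. The difference between ESC and NPC effects was called for 0 sums with edgeR (375 at an unadjusted p of 0.05) and for 35 with DESeq2.

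Most called sums outside the stretches had the same sign in both cell types (85.0% of the higher and 81.1% of the lower). The 3 examples that follow were chosen after their values were seen, and were well apart in ESC and not in NPC. Rows 3351 to 3360 had 101 and 93.1 CPM in HET ESC, 54.5 and 56.2 CPM in KO ESC, and 22.4 and 32.2 CPM in WT ESC (log2 fold change 1.79, SE 0.313, adjusted p = 0.0107, edgeR). In NPC they had 17.0 and 9.14 CPM in HET and 11.5 and 12.9 CPM in WT, a log2 fold change of 0.12 (adjusted p = 0.895, edgeR). Rows 40491 to 40500 had 27.5 and 29.2 CPM in HET ESC and 10.4 and 13.4 CPM in WT ESC (1.21, SE 0.19, adjusted p = 0.00737, edgeR). In NPC they had 14.5 and 12.1 CPM in HET and 12.8 and 13.6 CPM in WT. Rows 4071 to 4080 had 4.98 and 8.38 CPM in HET ESC, 6.0 and 7.13 CPM in KO ESC, and 23.0 and 30.5 CPM in WT ESC (-2.03, SE 0.288, adjusted p = 0.00519, edgeR), against 25.3 and 20.3 CPM in HET NPC and 21.3 and 21 CPM in WT NPC. Groups did not overlap in ESC for these 3 and overlapped in NPC. The difference between the ESC and NPC effects did not pass the test for any of them (adjusted p = 0.388, 0.217 and 0.101 in the order given, edgeR). Other called sums outside the stretches were apart in both cell types. Rows 41871 to 41880 had log2 fold changes of 2.32 in ESC and 1.94 in NPC, and rows 36461 to 36470 had -1.15 and -0.84. Neither of these NPC differences passed the test (adjusted p = 0.0658 and 0.116, edgeR).

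Of the 6 pairs of replicates, the WT ESC pair was the least alike at the level of transcripts. With a mean of the pair of at least 10 CPM, the HET ESC replicates differed by more than 2-fold at 501 of 10096 transcripts (4.96%), the KO ESC replicates at 465, and the WT ESC replicates at 848 of 10022 (8.46%). The NPC pairs differed at 537 in HET, 452 in KO and 475 in WT. Past 4-fold the 5 other pairs of replicates had 85 to 107, and the WT ESC pair had 181. The 2 WT libraries were also farther apart than most HET and WT libraries were from each other. HET replicate 1 differed from WT replicate 1 at 628 transcripts and from WT replicate 2 at 1111. HET replicate 2 differed from WT replicate 1 at 787 and from WT replicate 2 at 742. The gap within WT thus exceeded 3 of the 4 gaps between the genotypes.

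In a principal component analysis of the 6 ESC libraries, the first component held 27.4% of the variance. On it the HET libraries stood at 12.8 and 2.6, the KO libraries at 60.7 and 75.0, and the WT libraries at -40.5 and -110.7. The HET libraries lay between the other genotypes, and the WT libraries were farther from each other than WT replicate 1 was from either HET library. The second component, with 21.5%, parted the WT libraries from each other, at 109.9 for replicate 1 and -60.8 for replicate 2, with HET and KO libraries between them. The third, with 19.1%, set the HET libraries apart, at 81.6 and 54.9, from the KO libraries at -7.5 and -68.8 and the WT libraries at -31.7 and -28.4.

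**Figure D5:**
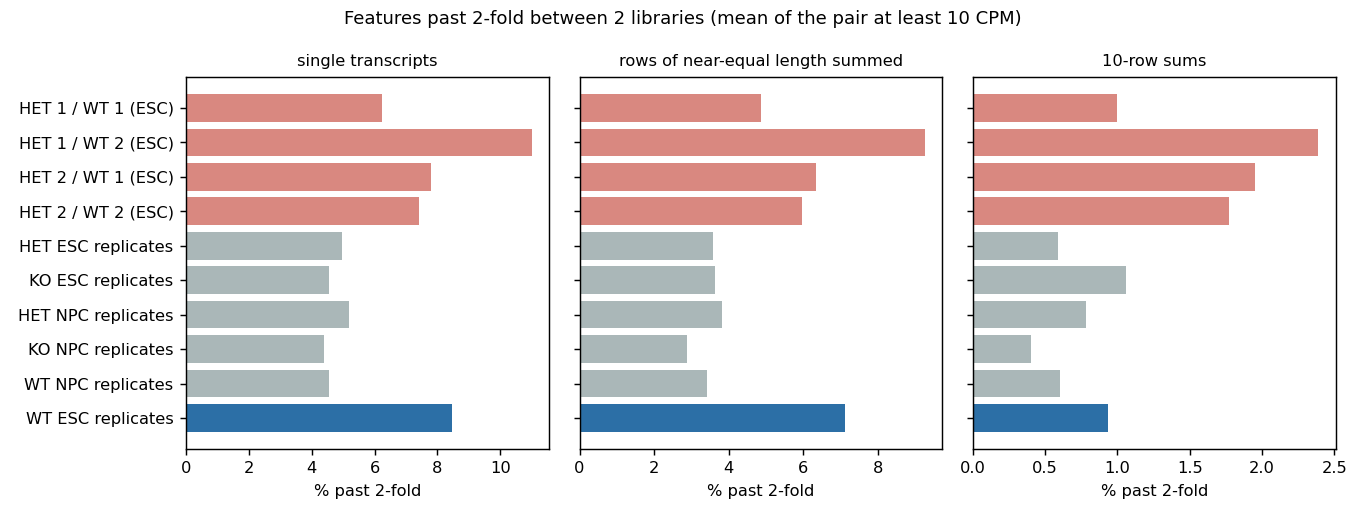
Share of features past 2-fold between 2 libraries, in percent on linear axes from 0 (scales differ between panels), for the 4 HET and WT pairings in ESC (red), the 5 other replicate pairs (grey) and the WT ESC replicates (blue). Left, single transcripts, where the WT ESC pair reaches 8.46%. Middle, rows of near-equal length summed (7.12%). Right, sums of 10 rows, where the KO ESC pair is at 1.06% and the WT ESC pair at 0.934%.

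The direction of the WT gap varied with transcript length. WT ESC replicate 2 was the lower one at 498 of the 848 transcripts and the higher one at 350. In HET ESC the median log2 ratio of replicate 2 to replicate 1 was -0.16 for transcripts over 300 and up to 600 bases, -0.11 up to 1000 bases, -0.13 up to 2000 bases, and between -0.1 and 0.04 for longer ones. In WT ESC the same medians were -0.41, -0.29 and -0.18, and between -0.06 and 0.04 for longer ones. Of the 201 transcripts in the first of these classes in the WT pair, 27 were past 2-fold lower in replicate 2 and 1 past 2-fold higher. The share past 2-fold in either direction was 13.9% in that class, 9.53% up to 1000 bases, 7.64% up to 2000, 7.41% up to 4000, 9.44% up to 8000 and 11.9% above, so short and long transcripts both exceeded the middle classes. The excess at long transcripts was shared by all other replicate pairs, at 5.75% to 8.49% above 8000 bases against 3.72% to 4.77% over 2000 and up to 4000. Their shares over 300 and up to 600 bases were 1.06% to 4.43%, the highest in HET ESC. Mean fragment length, as derived from the effective lengths, was 182.8 and 173.2 bases in HET ESC and 180.5 and 175.1 bases in WT ESC, so it was longer in replicate 1 of both. Its part in the length trend was not tested.

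In row order the largest WT gap sat in 1 block, rows 11855 to 12144, where 36 of 100 transcripts are 600 bases or shorter. The gap of replicate 2 to replicate 1 there was -0.46 in HET ESC, -0.08 in KO ESC and -0.49 in WT ESC. HET minus WT in that block was 0.12 in ESC and 0.5 in NPC. Without it, the WT median for transcripts over 300 and up to 600 bases was -0.36 in place of -0.41, so the length trend was not held by that block alone.

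Few transcripts separated both the WT libraries and the genotypes. Of the 848, 0 were among the 10 called and 4 were in the 2-fold lists of HET against WT. Both counts are held low by construction, since a wide WT gap weighs against either call. Both HET libraries lay between the 2 WT libraries for 450 of the 848, 1 of them did for 282, and neither did for 116. These counts also follow in part from the choice, since a wide WT gap leaves room for other libraries within it. The HET mean was nearer to WT replicate 1 for 491 and nearer to replicate 2 for 357. The HET replicates were in the same order as the WT replicates for 545 (64.3%), and 132 were also past 2-fold in the same direction between the HET replicates. Over all transcripts compared, the HET replicates were past 2-fold in either direction at 501 of 10096 (4.96%).

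The 4 extreme examples show the form of the gap. Transcript uc009rtc.1 had 28.8 and 8.33 CPM in HET ESC replicates 2 and 1, and 49.2 and 1.54 CPM in WT ESC replicates 2 and 1. For uc008qsi.2 the pattern held in both genotypes, with 45.2 and 1.37 CPM in HET ESC replicates 2 and 1, and 46.4 and 1.54 CPM in WT ESC replicates 2 and 1. In the other direction, uc008vgf.2 had 78.6 and 58.7 CPM in HET ESC, against 4.24 CPM in WT ESC replicate 2 and 79.8 CPM in replicate 1. Likewise uc008nke.1 had 20.5 and 24.6 CPM in HET ESC, against 1.24 CPM in WT ESC replicate 2 and 22.7 CPM in replicate 1. For these last 2 a single WT library stood apart from HET and from the other WT library. None of the 4 passed the test between HET and WT ESC (adjusted p = 0.881 to 1.0, edgeR). In sums of 10 rows the WT log2 ratios of replicate 2 to replicate 1 for these 4 were -0.1, 0.07, -0.43 and -0.07, while the single transcripts had 5.0, 4.91, -4.24 and -4.19. With rows of near-equal length summed, the first was 1.82 and the others were as for the single transcript, since they have no such neighbour. A sum of 10 rows also dilutes a single transcript, as for uc008qsi.2, whose 10 rows together had 838 and 952 CPM in HET ESC and 861 and 904 CPM in WT ESC.

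Fewer features differed by 2-fold within a pair after summing. With rows of near-equal length summed, 348 features were past 2-fold in the HET pair (3.59%) and 689 of 9681 in the WT pair (7.12%). With sums of 10 rows, 26 were past 2-fold in the HET pair (0.591%), 47 in the KO ESC pair (1.06%) and 41 of 4390 in the WT pair (0.934%), so the WT pair was then not the least alike by this count. The spread of all log2 ratios, as a robust standard deviation, was still widest in the WT pair, at 0.213 in the HET pair, 0.222 in the KO ESC pair and 0.284 in the WT pair. The 4 pairings of HET and WT libraries had 44 to 105 sums past 2-fold, all above the 41 within WT. For single transcripts 3 of these 4 pairings were below the WT pair.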

How the data were processed

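Per the labels' protocols, total RNA was depleted of ribosomal RNA and made into stranded SMARTer libraries. The submitters' processing notes name cutadapt 1.16, kallisto (its version is not stated) and mm9. Per the file headers, the deposited files hold estimated counts and TPM per transcript and library. The authors' estimated counts divide reads among compatible transcripts. Here 244 transcripts in 95 sets of equal length and equal values (to 2 decimals, at least 10 summed counts) were merged, leaving 55270 features, and counts were rounded. In edgeR 4.0.16 (R 4.3.3), filterByExpr (minimum count 10) chose the features and TMM scaled the libraries. A model with a mean per group was fitted over all 12 libraries. Tests were two-sided with Benjamini-Hochberg adjustment over all 30021 tested. An SE is the log2 fold change over the root of F. The scripts were tested on simulated data. Deposited TPM served alternatives only.

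The members, lists and scan settings were chosen with earlier results of these data known. Named transcripts met an adjusted p under 0.05, a mean of at least 5 CPM and no overlap, and the 2 largest rises and 2 largest falls are named. For the WT pair the 2 highest and 2 lowest ratios are named, with a mean of at least 10 CPM and at least 10 counts in each library, and the transcript with the highest count is named. Sums of rows and the 10-row sums named were chosen after values were seen. Planned uses of gene names (Chd8, markers) were not run, and no sequences were used here. Estimates of precision cover counting error only where counts are concerned. The alternatives tried were other scaling, filters, DESeq2 1.42.0, limma 3.58.1, fewer libraries, other block settings and summed rows.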

Additional observations from a re-analysis of the deposited data

Results flagged for a closer look

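The effect of genotype on uc009tkb.1 differed between ESC and NPC, by 5.05 log2 units for HET minus WT in ESC minus the same in NPC (adjusted p = 0.0207, edgeR), and the call was lost, at 0.53, when its neighbour of near-equal length was added.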

How the results depend on the processing

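The 10 calls of HET against WT in ESC became 1058 with DESeq2, 2 without the transcripts of the stretches, and 0 with only the 6 ESC libraries (1977 at an unadjusted p of 0.05) or only the 4 compared (1643). With 1 ESC library left out they ran from 3 to 49, a lone library being assumed to vary like the other groups. Other scaling, other filters, limma and leaving out uc009vew.1 gave 9 to 15. Of these, the 15 of limma held 4 of the 10, and the 11 at a mean of at least 10 CPM held 6. The other settings named here kept 9 or 10 of the 10. Chosen after seeing the data, sums of near-equal rows gave 4, 5-row sums 115 and 10-row sums 203. The 1 call of the difference between ESC and NPC effects became 264 with DESeq2, 0 with each of these 3 sums (1490, 668 and 375 at an unadjusted p of 0.05), and 0 to 6 with 1 library left out.

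The 203 calls of 10-row sums became 381 with DESeq2, 96 without scaling factors (47 higher, 49 lower), 39 with the 6 ESC libraries, 5 with the 4 compared, and 50 to 188 with 1 library left out. Their 0 calls of the difference between cell types became 35 with DESeq2 and 0 to 2 with 1 library left out. In 10-row sums uc008lju.2 turned to 0.05 (adjusted p = 0.893). The 19 of 199 blocks in stretches (9.55%) became 11 at a limit of 0.35 and 9 of 104 (8.65%, all higher) at a mean of at least 10 CPM. Blocks of 50 transcripts gave 32 of 398 (8.04%) and blocks of 200 gave 10 of 99 (10.1%). A mean of at least 5 CPM gave 14 of 142 (9.86%). The remaining settings gave 18 to 21, with 19 to 21 when 1 library was left out. The WT pair's 848 became 1753 at a mean of at least 5 CPM, 112 at 50 CPM, 481 with deposited TPM, 181 at 4-fold, 151 in 5-row sums and 41 in 10-row sums. It was 854 with the libraries thinned to the smallest total count. The causes were not tested.

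With the replicate number as a block, 0 transcripts (2588 at an unadjusted p of 0.05), 327 10-row sums and 20 blocks were found, and 0 transcripts (1473) and 0 sums for the difference between cell types. The replicates share only a number. Deviations of same-numbered HET and WT ESC libraries correlated at r = 0.153, KO and WT at 0.0551, and HET and KO at 0.261, over 10095 transcripts.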
